A study of Mus musculus with 4 samples.

Results

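Nodal, its co-receptor and inhibitors, and the growth factors FGF4 and FGF5 were examined as a set of 7 genes, Nodal, Gdf3, Tdgf1, Lefty1, Lefty2, Fgf4, and Fgf5, chosen by symbol from the 33565 genes listed in the matrices. The question was how strongly each gene was detected in 3 mouse cell lines, in what share of the cells, and whether the genes varied together among mouse embryonic stem cells (mESCs). The lines were Neuro-2a (N2a), a neuroblastoma line, NIH/3T3, an embryonic fibroblast line, and mESCs of the E14TG2a line, and the labels name no genetic change in any of them. RNA was measured by CapSeq, a split-pool single-cell method in which the first barcode (BC1) records the plate position and thus the line. N2a cells were in BC1 columns 1 to 4, NIH/3T3 cells in columns 5 to 8, and mESCs in columns 9 to 12.

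N2a and NIH/3T3 cells were grown with 10% fetal bovine serum. mESCs were grown on gelatin with 15% serum, LIF at 1000 U/ml, CHIR99021 at 3 µM, which inhibits the kinase GSK3, and PD0325901 at 1 µM, which inhibits the kinase MEK below the FGF receptors. Line, medium, and plate position therefore cannot be told apart. Each line was 1 library, so no test between lines was made. The intervals given are exact 95% intervals, Poisson for levels and binomial for shares, and cover counting error only.

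Nodal is a secreted ligand of the TGF-beta family that signals through activin receptors and SMAD proteins, and TDGF1 (Cripto) is the membrane co-receptor it needs. Its signal switches on the secreted inhibitors LEFTY1 and LEFTY2, which act back on Nodal, and GDF3 is a related ligand. FGF4 is the main FGF made by pluripotent cells of the early embryo and drives them towards lineage commitment through MEK and ERK, whereas FGF5 marks the later epiblast and is commonly read as a sign that cells have left the naive state.

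The genes lie on 6 chromosomes of GRCm39. By the GENCODE M39 annotation, Nodal is at chr10:61253587-61261117 on the plus strand, Gdf3 at chr6:122582317-122587197 on the minus strand, and Tdgf1, named Cripto there, at chr9:110768655-110775292 on the minus strand. Lefty2 is at chr1:180720635-180726932 and Lefty1 at chr1:180762587-180765971, both on the plus strand and side by side on that chromosome. Fgf4 is at chr7:144401104-144418985 and Fgf5 at chr5:98401780-98452320, both on the plus strand. Each of the 7 has between 3 and 6 separate exon blocks. Gdf3 overlaps Dppa3, a germ line and oocyte gene on the opposite strand, which had 123 UMIs in mESCs. Reads in the stretch shared by Gdf3 and Dppa3 could be told apart only if strand was used in the counting. The strand setting is not given in the sources used here. Nodal, Lefty1, and Lefty2 each overlap a long noncoding RNA gene on the opposite strand, Gm67993, Gm39715, and Gm57186. These are not listed in the matrices, and the same doubt holds for reads in the shared stretches. The best transcript alignment of Lefty1 with Lefty2 was 91.2% identical over 1159 bases, and that of Tdgf1 with its processed pseudogene Tdgf1-ps1 was 98.8% identical over 512 bases. Counts of these 3 genes are uncertain to the extent that reads were shared with such copies.

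RefSeq promoter windows on GRCm38.p6 were at hand for 4 of the 7 genes, and the 100 bases before each start are shown because Fgf4 was detected in mESCs and Fgf5, the other FGF ligand gene of the set, was not. All are printed 5′ to 3′ on the gene's own strand. Capitals mark matches to TATATA or GGGCGG on either strand. The windows are at chr10:61417872-61417971 (plus) for Nodal, chr9:110946159-110946258 (minus) for Tdgf1, chr7:144861286-144861385 (plus) for Fgf4, and chr5:98254084-98254183 (plus) for Fgf5.
Nodal: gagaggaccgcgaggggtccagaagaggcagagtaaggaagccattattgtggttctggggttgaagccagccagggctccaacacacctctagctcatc
Tdgf1: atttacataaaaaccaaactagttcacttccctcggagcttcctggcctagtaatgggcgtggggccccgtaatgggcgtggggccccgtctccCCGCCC
Fgf4: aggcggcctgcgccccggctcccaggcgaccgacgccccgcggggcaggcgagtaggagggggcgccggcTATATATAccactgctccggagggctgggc
Fgf5: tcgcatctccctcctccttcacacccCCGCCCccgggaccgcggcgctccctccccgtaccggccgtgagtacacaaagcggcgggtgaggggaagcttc

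Fgf4 and Fgf5 had like base composition over the 250 bases before the start, with 71.2% and 70.8% G or C and 21 and 24 CG dinucleotides. Tdgf1 and Nodal had 42.0% and 53.2%, and the median of all 32851 promoter windows was 52.4%. Fgf4 held a stretch of overlapping TATATA matches whose first base was 30 bases before the start, and 5.25% of all windows held TATATA within 250 bases on either strand. That motif reads the same on both strands, so each match counts on both. GGGCGG was found within 250 bases in Tdgf1, Fgf4, and Fgf5, against 32.7% of all windows. CCAAT was found in Nodal and Fgf4, against 33.9% of all windows, and CAGAC in Tdgf1, against 42.2%. No match was found in the 4 windows for TATAAA (12.4% of all windows), the octamer part TTTGCAT (4.13%), AATCCA (10.1%), or AATACA (9.47%). These matches describe letters, not binding.

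A barcode was taken as a cell with 1000 UMIs or more, of which no more than 20% were mitochondrial, which gave 2323 N2a cells, 2037 NIH/3T3 cells, and 2137 mESCs. Their median depths were 6185, 4863, and 4803 UMIs per cell, and the lines shared 0 cell barcodes. Levels are given as CPM, the UMIs of a gene summed over the cells of a line and scaled to a line total of 1000000. Marker genes of each line were then described. Some had been seen in earlier results of these data, so they are no independent check of the line labels. All 10 mESC markers, Pou5f1, Nanog, and Zfp42 among them, were highest in mESCs. There they summed to 5728 CPM, against 21.4 CPM in N2a and 17.4 CPM in NIH/3T3. All 10 N2a markers were highest in N2a, and 7 of the 10 NIH/3T3 markers in NIH/3T3. Of the other NIH/3T3 markers, Fn1 was highest in mESCs, and Cald1 and Tagln in N2a.

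Of the 7 genes, 6 had UMIs in mESCs. From the highest to the lowest level per length of annotated exon they were Tdgf1, Fgf4, Gdf3, Nodal, Lefty2, and Lefty1, and the counting intervals of no neighbouring pair in that order overlapped. Fgf5 had 0 UMIs in every line. For each of the 6, N2a and NIH/3T3 together held at most 48 UMIs.

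Nodal had 450 UMIs in mESCs, or 36.5 CPM (95% interval 33.2 to 40.1), with 3 UMIs in N2a and 4 in NIH/3T3. It was detected in 371 of 2137 mESCs, or 17.4% (15.8% to 19.0%), against 0.129% of N2a cells and 0.196% of NIH/3T3 cells. The ratio of the mESC level to that of NIH/3T3, the higher of the other lines, was 107 (41.4 to 394).

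Gdf3, the related ligand, had 1249 UMIs in mESCs, or 101 CPM (95.8 to 107), and 3 UMIs in each of the other lines. The share of mESCs with a UMI was 39.3% (37.2% to 41.4%), against 0.129% in N2a and 0.147% in NIH/3T3. Against the 3 UMIs of NIH/3T3 the ratio of levels was 395, with a wide counting interval of 135 to 1919.

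Tdgf1, the co-receptor, had the highest level per length of the set. Its 5840 UMIs in mESCs corresponded to 474 CPM (462 to 486). It was detected in 1692 mESCs, or 79.2% (77.4% to 80.9%), with a mean of 3.45 UMIs in those cells and up to 28 UMIs in a cell. N2a had 32 UMIs in 1.33% of its cells and NIH/3T3 had 16 UMIs in 0.785%. The ratio of the mESC level to the N2a level was 266 (188 to 389).

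The inhibitors had the lowest levels per length of the detected genes. Lefty2 had 123 UMIs in mESCs, or 9.98 CPM (8.30 to 11.9), in 4.40% of the cells (3.57% to 5.36%), with 2 UMIs in N2a and 0 in NIH/3T3. Lefty1 had 26 UMIs, or 2.11 CPM (1.38 to 3.09), in 22 cells or 1.03% (0.646% to 1.56%), with 1 UMI in N2a and 0 in NIH/3T3. Against the N2a counts of 2 and 1 the ratios were 89.6 (24.3 to 748) for Lefty2 and 37.9 (6.22 to 1553) for Lefty1. The Lefty1 share of N2a cells was 0.0430%, and the 0 of 2037 NIH/3T3 cells allows a share of cells with a UMI of up to 0.147% when 0 is taken to allow 3 counts, with an exact 95% upper bound of 0.181%.

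Fgf4 followed Tdgf1 per length, with 1975 UMIs in mESCs, or 160 CPM (153 to 168). It was detected in 1018 mESCs, or 47.6% (45.5% to 49.8%), and reached 13 UMIs in a cell. N2a had 7 UMIs in 0.301% of its cells and NIH/3T3 4 UMIs in 0.196%, and the ratio to N2a was 411 (199 to 1024). For Fgf5, taking a count of 0 to allow 3 counts, 0 of 2137 mESCs allows a share of cells with a UMI of up to 0.140% and a level of up to 0.243 CPM, with exact 95% upper bounds of 0.173% and 0.299 CPM. This limits the cells with a UMI and not the cells that express Fgf5. No fold is given for Fgf5, since all lines were at 0.

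Between genes, levels were compared only after division by the length of their annotated exons. That length joins the exons of all transcripts of a gene in GENCODE M39, whereas the paper names an earlier GENCODE release. UMIs count molecules, so division by length may distort the ratios between genes. The 6 detected genes had the same order by CPM without it. Whether reads in introns were counted is not given in the sources used here, and the values per length hold only if reads in exons alone were. The mESC level was 102 CPM per kb for Tdgf1, 46.9 for Fgf4, 38.7 for Gdf3, 16.7 for Nodal, 3.43 for Lefty2, and 1.20 for Lefty1. The interval of Fgf4 (44.8 to 49.0) lay above that of Gdf3 (36.6 to 40.9), and the interval of Lefty2 (2.85 to 4.09) above that of Lefty1 (0.781 to 1.75).

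Between lines, a gene was called when its CPM + 1 in mESCs was at least 4-fold above both other lines, or 4-fold below both, among genes with at least 5 CPM in any line. Of the 7 genes, 5 reached 5 CPM and all 5 were called higher in mESCs, while 8.12% of the 13000 genes tested were called higher and 3.04% lower. Lefty1 and Fgf5 did not reach 5 CPM and were not tested. On the log2(CPM + 1) scale, which understates the difference of low genes, the differences from the higher other line were 7.42 for Tdgf1, 6.86 for Fgf4, 6.35 for Gdf3, 4.81 for Nodal, and 3.31 for Lefty2. The median over the 5 genes tested was 6.35, against -0.44 over all genes tested. These 5 are the ones that passed a floor through their mESC level, so their count is a description and not support. The same holds for genes of other lists below that were near 0 in both other lines.

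The 32 BC1 sequences of each line were then taken as parts of 1 library, which are not replicates. In mESCs, the Nodal level at a BC1 sequence was 12.9 CPM at the lowest, 36.2 at the median, and 61.7 at the highest, and the highest value at any BC1 sequence of the other lines was 2.63 CPM. Gdf3 ranged from 69.0 to 128 CPM with a median of 100 CPM, against at most 4.14 CPM elsewhere. Tdgf1 ranged from 374 to 656 CPM with a median of 479 CPM, against at most 12.8 CPM elsewhere, and Fgf4 ranged from 102 to 212 CPM with a median of 160 CPM, against at most 3.60 CPM. For these 4 genes no mESC value overlapped the other lines, as held for 6.28% of the 13000 genes tested. The 4 genes entered that set through their mESC level, so this too is a description and not support.

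Both Lefty genes overlapped the other lines at this scale. Lefty2 was found at 31 of the 32 mESC BC1 sequences, from 0 to 22.6 CPM with a median of 10.8 CPM, against up to 2.72 CPM in N2a. Lefty1 was found at 16 of 32, from 0 to 14.4 CPM with a median of 0.787 CPM. The variance over BC1 sequences relative to Poisson counting was 2.28 for Tdgf1, 1.64 for Lefty1, 1.58 for Fgf4, 1.17 for Nodal, 0.918 for Lefty2, and 0.662 for Gdf3.

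**Figure D1:**
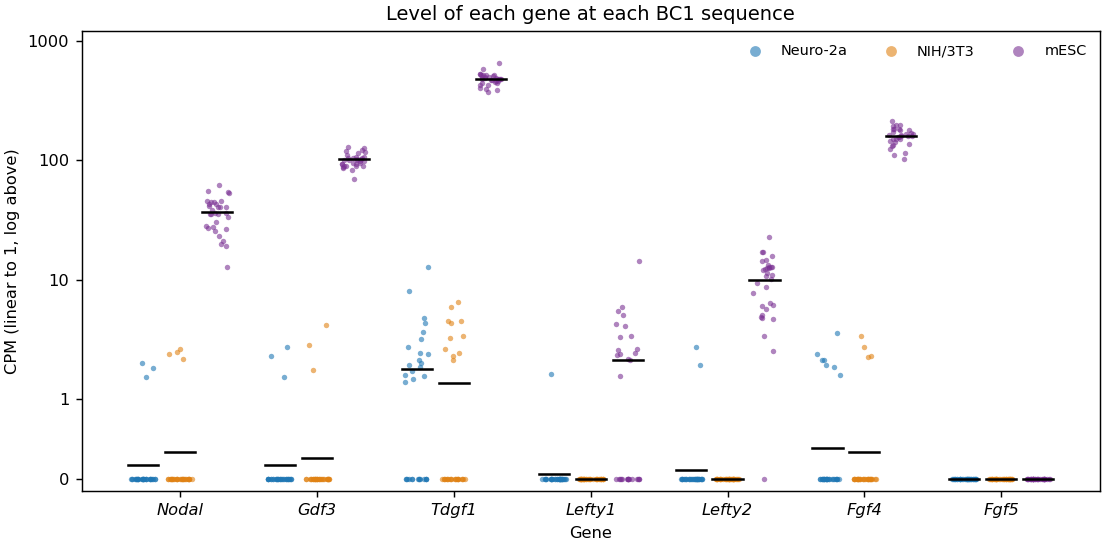
Level of each gene at each of the 32 BC1 sequences of a line, in CPM on an axis that is linear up to 1 and logarithmic above. Each point is 1 BC1 sequence and each black bar the level over all cells of the line. Nodal, Gdf3, Tdgf1, and Fgf4 lie above both other lines at all 32 mESC BC1 sequences, Lefty1 and Lefty2 do not, and Fgf5 is at 0 throughout.

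The few UMIs in the other lines were set beside those of other mESC genes. The members summed to 48 UMIs in N2a and 27 in NIH/3T3, which was 0.341% (0.251% to 0.452%) and 0.294% (0.194% to 0.429%) of their mESC level. The 10 mESC markers stood at 0.373% (0.337% to 0.413%) and 0.305% (0.264% to 0.349%) of theirs. The intervals of the members overlapped these in both lines. Without Tfcp2l1 and Dppa5a the markers stood at 0.183% (0.150% to 0.222%) and 0.158% (0.120% to 0.204%). The members lay above that shorter list in N2a and overlapped it in NIH/3T3. The genes left out were the markers with the most N2a UMIs, 173 and 106, so no conclusion is drawn from the shorter list. Tdgf1 made up 32 of the 48 UMIs in N2a, at 0.376% of its mESC level, and its variance over the N2a BC1 sequences was 2.13 times Poisson counting. The source of these UMIs was not tested.

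The rest of the Nodal pathway was described from gene lists, leaving the 7 genes out of each count. Among the other ligands, Inhbb, which encodes an activin subunit, was called higher in mESCs at 29.1 CPM against 0.446 CPM in N2a. Inhba, which encodes the other subunit, had 0 UMIs in mESCs and 11.3 CPM in NIH/3T3, but was not 4-fold below both lines. Gdf1 had 0 UMIs in every line. Cfc1, the co-receptor related to Tdgf1, had 1 UMI in mESCs. Of the 4 receptors, 3 were tested and 0 were called, with Acvr2a at 46.9 CPM in mESCs and 48.7 CPM in N2a, Acvr2b at 37.2 and 33.9 CPM, and Acvr1b at 24.7 and 19.8 CPM. Of the 4 SMAD effector genes, 3 were tested and 0 were called. Smad3 was at 23.9 CPM in mESCs and 97.9 CPM in NIH/3T3. The transcription factor gene Foxh1, which was below the 5 CPM floor, had 39 UMIs in mESCs and 0 in the other lines.

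Of the inhibitors outside the set, Fst (follistatin, which binds activin) was called higher in mESCs at 6.09 CPM, Cer1 had 0 UMIs in every line, and Dand5 was not called. The 2 convertases that cleave pro-Nodal were not called. Pcsk6 was at 159 CPM in mESCs and 57.7 CPM in N2a, and Furin at 10.9 and 32.9 CPM. Of 5 feedback and target genes 4 were tested and Smad7, an inhibitory SMAD gene, was called higher at 159 CPM against 33.9 CPM in NIH/3T3. Pmepa1 was at 73.4 CPM against 19.1 CPM, and Skil, at 65.1 CPM, was below the 188 CPM of N2a.

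On the FGF side, Fgf4 was the ligand gene with the most UMIs in mESCs. Of the 7 other FGF ligand genes listed, Fgf1 was the one tested and was not called, and the other 6 did not reach 5 CPM in any line. Among these, Fgf10 had 48 UMIs in mESCs, Fgf17 43, Fgf2 39, Fgf3 20, Fgf8 15, and Fgf15 11. Of the 5 receptor genes 4 were tested and 0 were called. Fgfr2 was at 234 CPM in mESCs against 99.9 CPM in NIH/3T3, and Fgfr1 at 102 CPM against 99.1 CPM in N2a. All 8 genes of the signal relay from FRS2 to ERK were tested and 0 were called, with the adaptor gene Grb2 at 151 CPM in mESCs and 158 CPM in NIH/3T3.

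Of 12 FGF and ERK target genes, 11 were tested, 0 were called higher, and 3 were called lower in mESCs. These were Dusp4 and Dusp6, phosphatases of the ERK pathway, and the immediate early gene Egr1. Dusp4 was at 2.68 CPM in mESCs and 97.2 CPM in N2a, Dusp6 at 9.49 CPM and 85.2 CPM in NIH/3T3, and Egr1 at 6.09 CPM and 202 CPM in N2a. In the lower other line, on which these calls rest, Dusp4 was at 22.3 CPM (NIH/3T3), Dusp6 at 48.2 CPM (N2a), and Egr1 at 30.95 CPM (NIH/3T3). The median log2 difference of the 11 from the higher other line was -1.97, against -0.44 over all genes tested. Not every gene of the list was low, as Etv5, Spry2, and Spred2 were highest in mESCs. Etv5, an ETS transcription factor gene, was at 321 CPM in mESCs and 92.3 CPM in N2a. Spry2 was at 26.1 CPM against 18.7 CPM in N2a, and Spred2 at 212 CPM against 200.5 CPM in N2a. The other genes tested were below the higher other line. The mESC medium holds the MEK inhibitor and the other media do not, so the parts of line and inhibitor cannot be told apart.

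**Figure D2:**
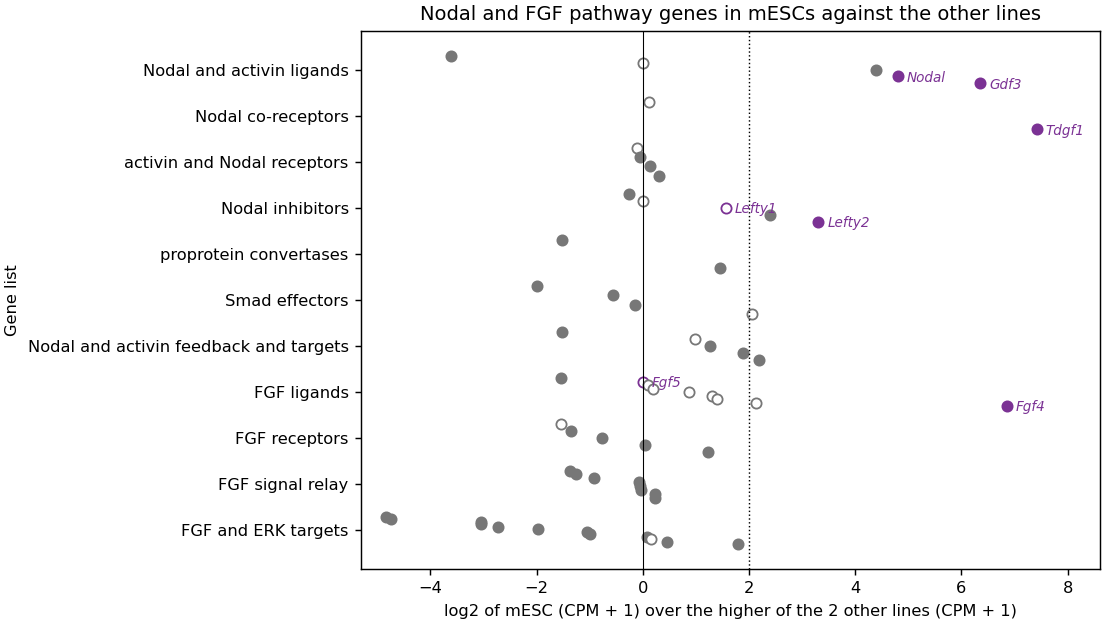
Pathway genes by list, plotted by the log2 ratio of CPM + 1 in mESCs to that of the higher of the other lines. Purple points are the 7 genes of the set and grey points the other genes of each list, open points did not reach 5 CPM in any line, and the dotted line is the 4-fold limit. Receptors, SMAD effectors, and the FGF relay lie to the left of the limit, except the open point of Foxh1.

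State markers gave the setting in which these ligands were measured. Of 12 naive pluripotency genes 11 were called higher in mESCs, with Dppa5a at 1821 CPM, Zfp42 at 1318 CPM, and Tfcp2l1 at 713 CPM. Of 7 formative and primed genes beside Fgf5, 4 were tested and 3 were called higher, namely Dnmt3b at 57.9 CPM, Zic2 at 23.0 CPM, and Otx2 at 6.74 CPM. Of 7 mesendoderm genes 2 were tested and called higher, Gsc at 9.41 CPM and Eomes at 5.76 CPM. Zic2, Otx2, Gsc, and Eomes had at most 0.167 CPM in either other line and passed the 5 CPM floor through mESCs alone. Their calls followed from that floor, so these counts are a description and not support. Most of the naive genes called higher also passed it through mESCs alone. Over all genes tested, 8.12% were called higher. Of 7 primitive endoderm genes 3 were tested, and Gata4 was called lower at 2.27 CPM. Sox17 and Gata6 had 5 and 15 UMIs in mESCs.

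Within mESCs, detection of each gene depended on the depth of the cell. From the quintile of cells with the fewest UMIs to the quintile with the most, the share of cells with Nodal went from 3.97% to 36.3%, with Gdf3 from 13.8% to 65.6%, with Tdgf1 from 50.7% to 98.1%, and with Fgf4 from 19.6% to 78.9%. Levels moved far less. Tdgf1 lay between 458 and 490 CPM in all 5 quintiles, Gdf3 between 89.0 and 124 CPM, and Nodal between 22.6 and 46.9 CPM. Fgf4 was at 122 CPM in the lowest quintile and 175 CPM in the highest.

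When every cell was thinned to 1000 UMIs, all 2137 mESCs were kept and Tdgf1 was found in 36.2%, Fgf4 in 13.9%, Gdf3 in 9.45%, Nodal in 3.28%, Lefty2 in 0.936%, and Lefty1 in 0.281% of them. The same draw gave at most 0.215% for any of the genes in N2a and 0.147% in NIH/3T3. Without thinning, 234 mESCs (10.9%) had none of the 7 genes and 15 cells had 5 of them. The cells with none had a median of 2021 UMIs and those with 5 a median of 14849.

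**Figure D3:**
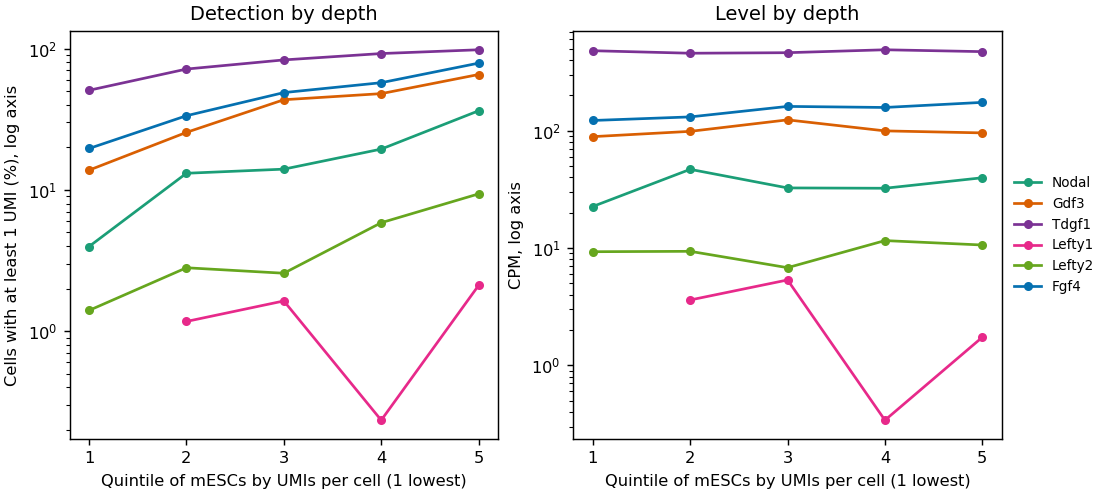
Share of mESCs with at least 1 UMI (left) and CPM (right) of each gene in quintiles of the cells by UMIs per cell, both on log axes. Shares of Nodal, Gdf3, Tdgf1, and Fgf4 climb at every step, while the levels of Tdgf1 and Gdf3 stay within a narrow band. Lefty1 had 0 UMIs in the lowest quintile, which is not drawn.

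Cell-to-cell variation was expressed as the squared deviation from the depth-scaled mean, relative to Poisson counting, for which the value is 1. Tdgf1 had a ratio of 1.64 and Fgf4 of 1.42, against a median of 1.14 (quartiles 1.08 and 1.23) over 10764 genes with at least 5 CPM in mESCs. The values were below that median for Gdf3, at 1.13, and Nodal, at 1.12. Tdgf1 exceeded 94.7% of the genes and Fgf4 89.8%. At equal relative variation this ratio grows with the level of a gene, and the genes compared were not matched by level. Tdgf1 ranked 302 and Fgf4 1477 by level among 22322 genes with UMIs in mESCs. These shares therefore do not show that either gene varied unusually for its level. For comparison, Zfp42 was at 2.06, Nanog at 1.50, and Esrrb at 1.25.

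The numbers of cells by count were set beside Poisson counting at the same depths. Tdgf1 was absent from 445 mESCs, had 1 UMI in 441, 2 in 356, and 3 or more in 895. For Tdgf1, Poisson counting gives 930 cells with 3 or more UMIs, and 1788 with any where 1692 had any. It thus had fewer cells of both kinds than Poisson counting gives, and more cells without a UMI. Fgf4 had 3 or more UMIs in 235 cells, where Poisson counting at the same depths gives 201. Nodal had 3 or more in 15 cells where 6.74 are given. Lefty2 had a ratio of 1.53, with 3 or more UMIs in 4 cells where 0.181 are given. Lefty1 was at 1.52 and fell to 1.08 without the single cell that held 4 of its 26 UMIs, so its value rests on that cell.

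Co-detection was measured as the number of mESCs with both genes of a pair over the number given by independent detection within each of 10 equal bins of the cells by depth. For Tdgf1 and Fgf4, 883 cells had both where 878 are given, a ratio of 1.01 (0.940 to 1.07). For Gdf3 and Tdgf1 the ratio was 1.02 (0.947 to 1.09), for Gdf3 and Fgf4 1.00 (0.917 to 1.10), and for Nodal and its co-receptor gene Tdgf1 0.996 (0.891 to 1.11). Nodal and Gdf3, the TGF-beta family ligands, were both found in 205 cells where 187 are given, a ratio of 1.10 (0.951 to 1.26).

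The pairs of Nodal with its inhibitors were sparse. Nodal and Lefty2 shared 25 cells where 23.3 are given, a ratio of 1.07 (0.694 to 1.58), and Nodal and Lefty1 shared 3 cells where 5.25 are given, a ratio of 0.571 (0.118 to 1.67). Lefty1 and Lefty2, which lie side by side on the chromosome, shared 2 cells, and the ratio of 1.66 had an interval from 0.201 to 6.00. The interval held 1 for each of the 15 pairs. A Poisson interval does not take the numbers of cells with each gene as fixed, so it is too wide. It is most so for genes found in many cells, such as Tdgf1 and Fgf4. An interval that holds 1 is therefore no sign that the genes of a pair were detected independently. These intervals ignore that the number of cells with both genes cannot exceed the 22 cells with Lefty1 or the 94 with Lefty2, so for the pairs of Tdgf1 with these genes no excess could have moved the interval above 1. Pearson correlations of log values over the 2137 cells, which come from 1 library and share its range of depths, lay between -0.0282 and 0.0780. With counts this sparse, values near 0 are no finding in either direction.

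**Figure D4:**
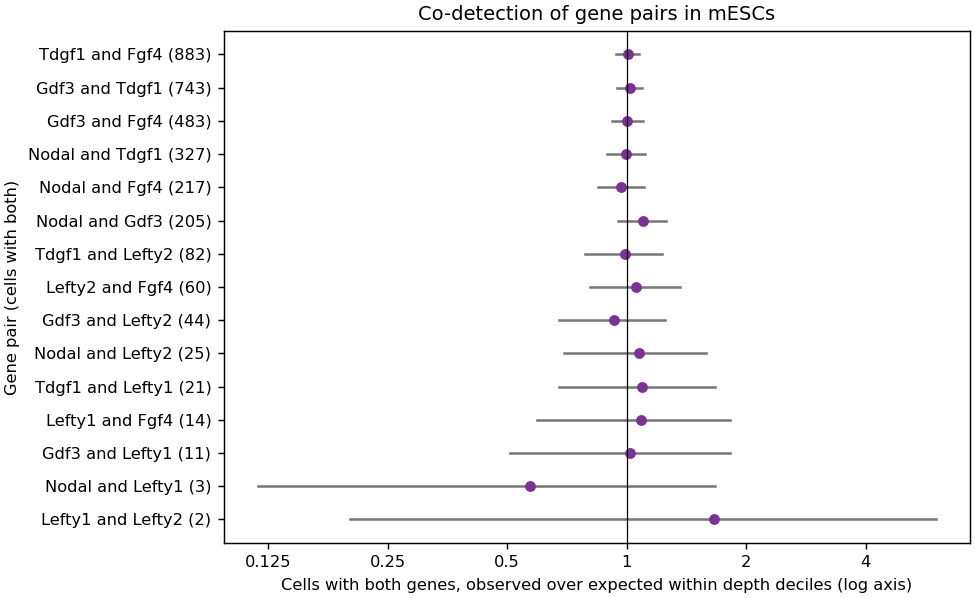
Observed over expected number of mESCs with both genes for the 15 pairs of the 6 detected genes, on a log axis. Points are ratios, lines are exact 95% Poisson intervals of the observed number, and the number of cells with both genes stands beside each pair. All 15 lines cross 1, and they widen from Tdgf1 and Fgf4 with 883 cells to Lefty1 and Lefty2 with 2. The lines are too wide for genes found in many cells, so crossing 1 is no sign of independent detection.

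For the 4 genes with at least 100 positive mESCs, the 5 genes most like each were named by Pearson correlation over the same 2137 cells among 9185 genes found in at least 5% of mESCs. For Tdgf1 they were Zfp42 (REX1, a naive state marker) with r = 0.234, Tet1 (a 5-methylcytosine dioxygenase) with r = 0.231, Set, Ptma, and L1td1 with r = 0.188. The correlations for Fgf4 were lower, from 0.159 for Rest, a repressor of neuronal genes, through Nid1, Dctpp1, and Mt2 to 0.145 for Enah. For Gdf3 they ran from 0.130 for Anp32b through Nucks1, Fblim1, and Sumo2 to 0.122 for Hnrnpl. For Nodal they ran from 0.0996 for Fam102a through Cog1, Mrpl36, and Fbxw9 to 0.0893 for Cpd. The 99th percentile over all those genes was 0.127 for Tdgf1, 0.107 for Fgf4, 0.0941 for Gdf3, and 0.0712 for Nodal. The genes named are the 5 highest of 9185, so they lie above that percentile by the way they were picked, and it lends them no support. All these correlations are weak descriptions of 1 library, and those for Nodal are too weak to be read.

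Levels were also compared between tertiles of the mESCs ordered by the summed level of a gene list. From the lowest to the highest tertile of the naive pluripotency list, Tdgf1 went from 415 to 515 CPM, a ratio of 1.24 (1.16 to 1.33). Fgf4 went from 145 to 178 CPM, a ratio of 1.23 (1.10 to 1.38), Gdf3 from 89.5 to 109 CPM, a ratio of 1.22 (1.05 to 1.41), and Nodal from 27.1 to 39.3 CPM, a ratio of 1.45 (1.12 to 1.89). Lefty2, at 8.29 and 9.06 CPM, had a ratio of 1.09 (0.652 to 1.84). Lefty1 went the other way, from 3.87 to 0.518 CPM, on 26 UMIs in all. The middle tertile lay between the outer ones for Tdgf1, Fgf4, Gdf3, and Lefty1. It was the highest for Nodal, at 41.3 CPM, and for Lefty2, at 12.0 CPM. No ratios over all genes stand beside those given here and below, so it is not known how unusual they are.

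Between tertiles by the formative and primed list, the intervals of all 6 ratios held 1, with Tdgf1 at 0.949 (0.886 to 1.02) and Fgf4 at 1.08 (0.954 to 1.22). Between tertiles by the G2/M list, Tdgf1 had a ratio of 1.24 (1.16 to 1.32) and Fgf4 of 1.15 (1.03 to 1.30). For the S phase list Tdgf1 had a ratio of 0.977 (0.914 to 1.045) and Fgf4 of 1.13 (1.01 to 1.27). For the FGF relay list Tdgf1 had a ratio of 0.893 (0.836 to 0.953) and Fgf4 of 0.917 (0.817 to 1.03). Between tertiles by the FGF and ERK target list, Fgf4 had a ratio of 0.940 (0.837 to 1.06) and Tdgf1 of 1.10 (1.03 to 1.17). Tdgf1 was lowest in the middle tertile of that list, at 449 CPM. Between tertiles by the Nodal feedback and target list, Nodal had a ratio of 1.04 (0.805 to 1.34) and Lefty2 of 0.980 (0.577 to 1.68). Between tertiles by Zfp42 alone, Tdgf1 went from 422 to 542 CPM, a ratio of 1.29 (1.20 to 1.38), and Fgf4 had a ratio of 1.05 (0.930 to 1.18). Fgf4 was highest in the middle tertile by Zfp42, at 177 CPM.

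In the 73 mESCs (3.42%) with 3 or more UMIs of a list of 2-cell-like genes such as Zscan4d and Tmem92, Tdgf1 was at 287 CPM against 480 CPM in the other mESCs, Fgf4 at 76.1 against 163 CPM, Gdf3 at 42.3 against 103 CPM, and Nodal at 33.8 against 36.6 CPM. The ratios were 0.599 (0.488 to 0.729), 0.467 (0.307 to 0.682), 0.410 (0.229 to 0.679), and 0.924 (0.474 to 1.63), beside a median ratio of 0.836 of CPM + 1 over 7265 genes with at least 20 CPM. Of those genes, 4.96% had a ratio below that of Gdf3, 8.07% below that of Fgf4, 19.2% below that of Tdgf1, and 62.4% below that of Nodal. Lower ratios were not particular to the set. In the same cells Esrrb was at 0.459 and Zfp42 at 0.658, whereas Nanog was at 0.935 and Pou5f1 at 0.975. Lefty1 and Lefty2 had 1 UMI each in the 73 cells, too few to be read.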

How the data were processed

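CapSeq reads were split by BC1, trimmed and counted by the authors with STARsolo on GRCm39, the build in the submitters' processing notes. The deposited values are UMI counts, not normalized, in 1 matrix for each line and 1 for the pool (4 in all), with no filter on cells. The matrices held 13505027 to 20662884 UMIs per line. Gene names and barcodes were taken as deposited.

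Cells had 1000 UMIs or more, no more than 20% of them mitochondrial. CPM, thinning to 1000 UMIs, 4-fold calls with a pseudocount of 1 CPM, co-detection within 10 depth bins, and correlations of log(1 + counts per 10000) were computed in Python 3.11.15 with numpy 2.4.6, scipy 1.17.1, and pandas 2.3.3. BLAST+ 2.17.0 aligned GENCODE M39 transcripts, keeping alignments of at least 300 bases and 80% identity. No doublet caller was run. The steps were tested on simulated data. The limit that a count of 0 allows was set at 3 counts. The genes named were the 7 members, up to 3 of each list with the highest mESC level or called, and the 5 most like each member. Pathway genes outside that rule, the tertiles by gene lists and single genes, and the 2-cell-like split were chosen after their values were seen. Members and lists were chosen with earlier results of these data known. The level of 1 gene of the FGF relay list is not reported here. With 1 library per line, no p-value was computed. The pooled matrix was made from the same sequencing run without the BC1 split, also holds UMIs that are in none of the line matrices, and was used only as an alternative and for those UMIs.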

Additional observations from a re-analysis of the deposited data

Results flagged for a closer look

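Some UMIs lay outside the cells and matrices used for the levels, in numbers above the 3 that a count of 0 allows. In mESC barcodes outside the cell filter there were 649 UMIs of Tdgf1, 259 of Fgf4, 150 of Gdf3, 58 of Nodal, and 15 of Lefty2. Their levels there were 418, 167, 96.6, 37.3, and 9.66 CPM. Tdgf1 also had 7 UMIs in N2a and 9 in NIH/3T3 barcodes outside the filter. The pooled matrix held 143 UMIs of Tdgf1, 47 of Fgf4, 30 of Gdf3, 15 of Nodal, and 7 of Lefty2 that were in none of the 3 line matrices. Fgf5 had 0 UMIs in every barcode of all 4 matrices.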

How the results depend on the processing

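No paired analysis was possible because each line was 1 library and no result comes from a test. Of 128 alternative values for the results that answer a comparison, 111 stayed within the counting interval, within 1.5 times a count, or within 10% of a median, or, for the median correlation, within 0.1. All 35 alternatives of the mESC levels were among them. Of 398 alternatives of single values 34 moved, 7 of them among the 75 of single pairs, which were 6 pairs without depth bins, at 1.10 to 1.41, and Lefty1 and Lefty2 without the 5% of cells with the most UMIs, at 0. Without thinning, the share of mESCs was 17.4% for Nodal, 39.3% for Gdf3, 79.2% for Tdgf1, 1.03% for Lefty1, 4.40% for Lefty2, and 47.6% for Fgf4. Thinned to 500 UMIs, these were 1.59%, 5.10%, 21.1%, 0.0468%, 0.374%, and 7.63%. Lefty1 was found in 0 of the thinned cells with the counts of the pooled matrix, a draw of its own. At a 2-fold limit 1690 genes were called higher and 1205 lower in mESCs, against 1056 and 395, and 5 members were called higher at either limit. Without depth bins the median co-detection ratio over pairs was 1.21 against 1.02. The median variance over Poisson of the members fell to 1.25, from 1.47, when the cell with the most UMIs of each gene was left out. Splits by 1, 2, or 5 UMIs of the 2-cell-like list, by cells with at least 2000 UMIs, and co-detection without the 2-cell-like cells were chosen after seeing the data. Under these splits the ratios of Tdgf1, Fgf4, and Gdf3 lay between 0.289 and 0.727, and that of Nodal went to 0.879 at 1, 0.812 at 2 and 0.606 at 5 UMIs. Depth limits what can be said of Lefty1, Lefty2, and Fgf5, and 1 library per line leaves the spread between cultures unknown.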
